A study of Mus musculus with 36 samples.

Results

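The transcripts of 10 genes of the hypoxia-inducible factor (HIF) pathway were followed through tumors and kidneys of mice that carried the ASPSCR1-TFE3 gene fusion. The genes were taken by symbol from the 53379 genes counted. They were the factor subunits Hif1a and Epas1, the regulators Vhl and Egln3, and the targets Vegfa, Adm, Ankrd37, Car9, Bnip3 and Ndrg1. All 10 passed the filter on low counts in every comparison.

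HIF is a pair of proteins that switches on genes when oxygen is short. When oxygen is present, prolyl hydroxylases of the Egln family mark the alpha subunits encoded by Hif1a and Epas1, and the ubiquitin ligase that contains the Vhl protein then sends them for degradation. When oxygen is low or Vhl is lost, the alpha subunit persists, pairs with Arnt and binds short sites built around RCGTG in its targets. Loss of VHL with constant HIF activity is the hallmark of clear cell renal carcinoma, while carcinomas with a TFE3 fusion form a separate class of kidney cancer. HIF alpha is set largely at the protein level, which RNA counts do not measure.

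RNA was sequenced from formalin-fixed, paraffin-embedded tissue in 36 libraries from 2 Cre lines. In the adult line, Cre was driven by the Sglt2 promoter of the proximal tubule. 6 mice of the genotype Sglt2-Cre; ASPSCR1-TFE3 LSL/+ were the source of 11 libraries of kidney tumors, 3 of brain tumors, 4 of retro-orbital tumors and 4 of kidney that was not transformed, and 3 Sglt2-Cre mice without the fusion allele were the source of 6 control kidney libraries. In the fetal line, Cre was driven by Pax8, a gene of the kidney lineage, and 5 fetuses of the genotype Pax8-Cre; ASPSCR1-TFE3 LSL/+ gave kidneys labelled dysmorphic. The 3 control fetal kidneys are labelled Pax8-Cre, while the series text allows either allele alone for them. Strain and age are not given in the labels, and no group received a drug. Libraries of the same animal and tissue were summed, which left kidney tumors of 6 mice, retro-orbital tumors of 4 (mice 2, 3, 5 and 6), brain tumors of 3 (mice 1, 2 and 4), non-transformed kidneys of 4 (mice 1, 3, 4 and 5), control kidneys of 3, and 5 dysmorphic and 3 control fetal kidneys. Several tissues therefore came from the same fusion mouse.

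Libraries held 80205573 to 121415057 counts, and levels are given per animal as CPM, the count scaled to a common library total with TMM factors. A list of 6 genes known to follow TFE3 activity, Gpnmb and Ctsk among them, summed to 3591 to 8068 CPM in kidney tumors and to 59.9 to 78.1 CPM in control kidneys. The list was chosen with earlier results of these data known, so it is not an independent check of the labels. Non-transformed kidneys lay between, at 182 to 564 CPM. Y-linked transcripts marked 2 of the 6 fusion mice, mice 1 and 5, as male, while the 3 control mice were female. Markers of the proximal tubule differed widely among kidney tumors, with sums of 8104 and 7740 CPM in mice 4 and 5, 2549 CPM in mouse 1 and 641 to 645 CPM in mice 2, 3 and 6, compared to 11690 to 13145 CPM in control kidneys. In bulk tissue, fewer cells of a type and less RNA per cell cannot be told apart.

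Promoter sequence was examined because HIF targets are defined by the sites HIF binds. In RefSeq (GRCm38.p6), windows of the 250 bases before a transcription start were at hand for 8 of the 10 genes, with 2 starts for Vegfa, hence 9 windows. The letters ACGTG, on either strand, stood in 6 of the 9 windows and in 16.6% of all 32851 windows. GCGTG stood in 4 of the 9 and in 28.2% of all, and CACGTG, which contains ACGTG on both strands, in 2 of the 9 and in 6.02% of all. CACGTG is also the core of the sites that the MiT/TFE proteins, the family of TFE3, are known to bind. The windows of the factor and of the targets that hold the most such letters are shown with ACGTG on either strand, CACGTG included, in capitals, 5′ to 3′ toward the start.
Hif1a, chr12:73907617-73907866, plus strand: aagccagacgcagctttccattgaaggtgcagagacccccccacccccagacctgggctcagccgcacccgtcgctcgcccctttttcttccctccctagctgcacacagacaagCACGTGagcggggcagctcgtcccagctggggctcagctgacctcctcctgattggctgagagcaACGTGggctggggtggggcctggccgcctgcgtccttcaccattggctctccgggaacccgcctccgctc
Ankrd37, chr8:45999851-46000100, minus strand: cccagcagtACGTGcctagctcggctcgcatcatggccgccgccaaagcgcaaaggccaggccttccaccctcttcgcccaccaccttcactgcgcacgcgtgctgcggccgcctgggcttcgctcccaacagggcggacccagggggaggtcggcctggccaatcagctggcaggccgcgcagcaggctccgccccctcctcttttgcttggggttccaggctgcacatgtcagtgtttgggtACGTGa
Bnip3, chr7:138909507-138909756, minus strand: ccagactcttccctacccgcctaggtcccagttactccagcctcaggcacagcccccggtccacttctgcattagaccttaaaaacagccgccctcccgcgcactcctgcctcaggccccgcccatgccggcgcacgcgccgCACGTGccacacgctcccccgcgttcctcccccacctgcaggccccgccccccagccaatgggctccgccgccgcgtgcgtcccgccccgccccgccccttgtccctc
Car9, chr4:43506994-43507023, plus strand: tcctatttccgatgCACGTacagcccgtcc
Starts are those of RefSeq. That of Hif1a lies inside the gene, 6492 bases after the first transcript start in GENCODE M21 and 37 bases before the nearest one, so that no run of 20 bases after it was found in a GENCODE transcript. The same search failed for the second Vegfa start, 282 bases before the nearest GENCODE start, and found the other 7. The Ankrd37 start and the second Vegfa start also lie inside their genes, 5857 and 7206 bases after the first GENCODE transcript start. Before these starts, Hif1a held CACGTG at 135 bases and ACGTG at 70 bases. Ankrd37 held ACGTG 241 and 6 bases before the start, and Bnip3 held CACGTG 108 bases before it. Car9 is shown by the 30 bases around its match, which lies on the minus strand 18 bases before the start and appears as CACGT. Egln3 held ACGTG 229 bases before its start, the second Vegfa start held it 211 bases before, and Adm held only GCGTG, 90 and 54 bases before. Neither the Vhl window nor that of the first Vegfa start held any of these letters. A match describes the sequence and is not a measured site.

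In control kidneys, where the genes can be set side by side per kilobase of exon, Ndrg1 led with 189 CPM per kb. Hif1a (55.4 CPM per kb), Epas1 (52.3) and Bnip3 (51.0) followed at a like level, then Vegfa (16.3), Egln3 (6.56), Adm (3.99), Vhl (1.69), Car9 (1.07) and Ankrd37 (0.595). Low levels of Car9 and Ankrd37 mean that their values rest on few counts compared to the others. The plot of levels by group shows all 10 genes in each animal.

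**Figure D1:**
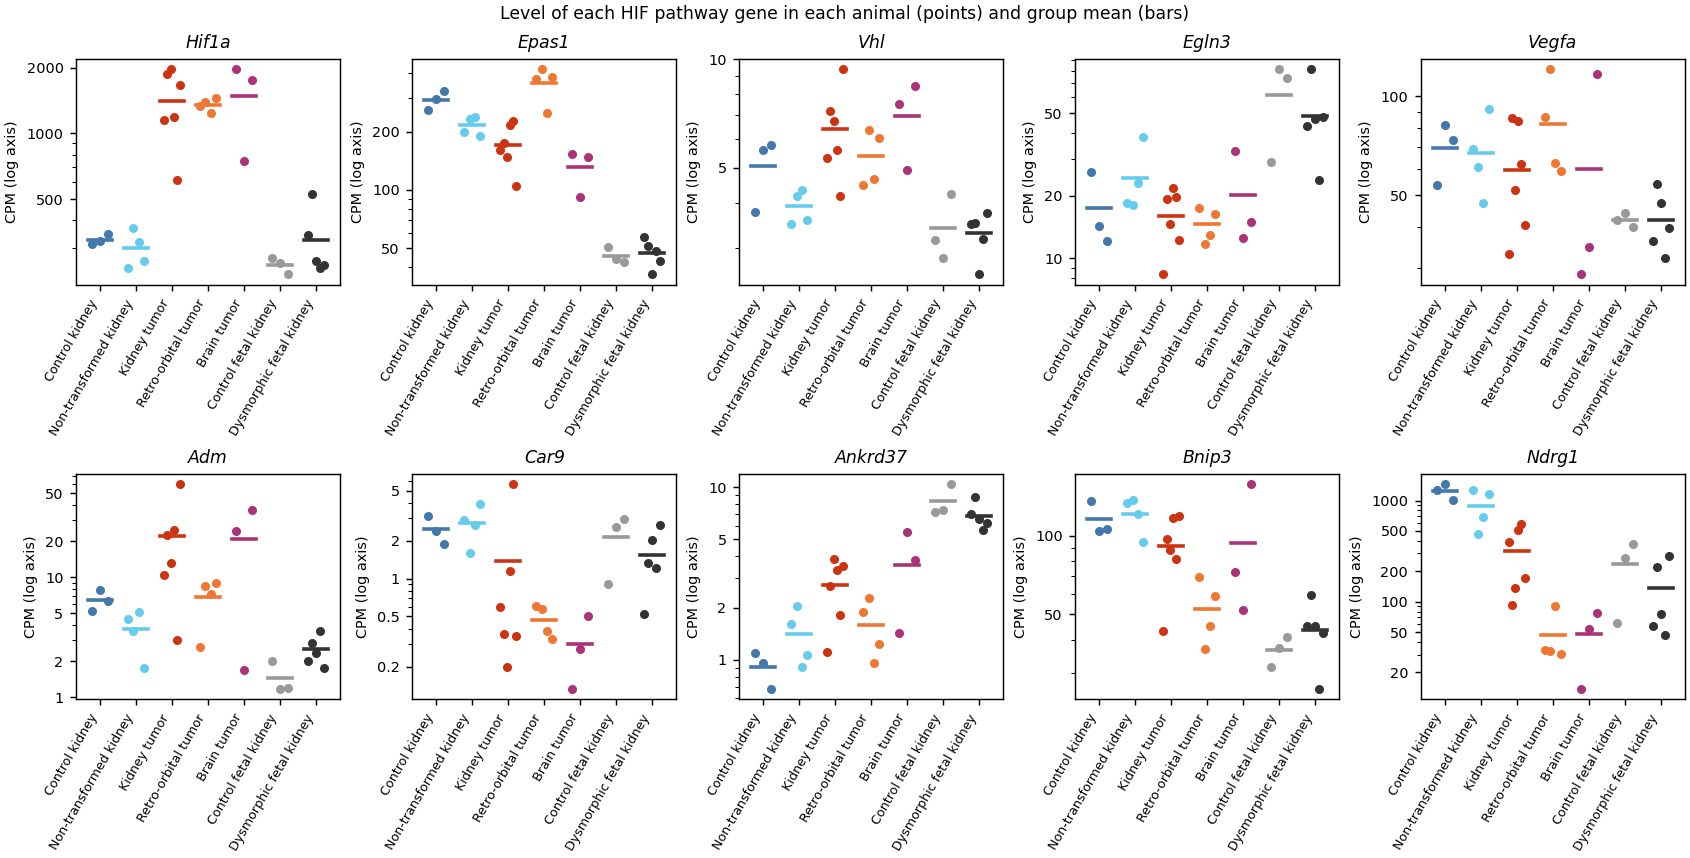
Level of each of the 10 genes (CPM after TMM scaling, log axis) in every animal of the 7 groups, with points for animals and bars for group means. Hif1a is highest in the 3 tumor groups, Epas1 is highest in retro-orbital tumors and lowest in fetal kidneys, and Ndrg1 is highest in control and non-transformed kidneys.

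Kidney tumors were compared to control kidneys to ask how the pathway differs in tumors driven by the fusion. Hif1a rose, Epas1 fell, and of the targets Ankrd37 rose and Ndrg1 fell, while Vhl, Egln3, Vegfa, Adm, Car9 and Bnip3 did not pass the test. Calls are from the quasi-likelihood test of edgeR at a Benjamini-Hochberg adjusted p under 0.05 over all genes tested. These were 4 of 10 genes called, compared to 19.0% of all 23578 genes tested, with 2 higher (12.5% of all genes) and 2 lower (6.51% of all). Tumor and control values were separate for the same 4 genes, compared to 29.8% of all genes. The median log2 fold change was -0.16 for the 10 genes and 0.05 for all genes. The number of genes called ranged from 1 to 6 when each animal was left out in turn, so each call is given with what it rests on.

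Hif1a encodes HIF1α, the subunit present in most cell types (ENSMUSG00000021109.13, GENCODE M21, GRCm38, chr12:73901375-73947530, plus strand). The 3 control kidneys had 311, 323 and 346 CPM. Kidney tumors ranged from 609 to 1966 CPM with a median of 1426 CPM, and every tumor lay above every control kidney. The log2 fold change was 2.13 (SE 0.36), a 4.38-fold higher level (edgeR adjusted p = 0.00599). The 4 non-transformed kidneys had 241.8, 260.8, 319.4 and 368.3 CPM, within or near the control range, and tumors exceeded them by 2.21 (SE 0.32) on the log2 scale, or 4.62-fold (edgeR adjusted p = 0.00187). Both calls held in every alternative tried, with log2 fold changes from 2.01 to 2.40 over 19 alternatives and from 1.91 to 2.44 over 16. An antisense gene, Gm15283, overlaps Hif1a and had means of 0.20 CPM in control kidneys and 0.88 CPM in tumors, far below Hif1a.

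The level of Hif1a differed among kidney tumors. Mice 2, 3 and 6 had 1867, 1966 and 1666 CPM, and mice 1, 4 and 5 had 1148, 1187 and 609 CPM. The latter 3 tumors were those with the higher proximal tubule sums, and their part in the result was not tested. Without the kidney tumors of mice 4 and 5, which have the highest tubule sums, Hif1a was still called in both comparisons.

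Epas1 encodes HIF2α, the alpha subunit best known from endothelium and the interstitial cells that make erythropoietin (ENSMUSG00000024140.9, chr17:86753700-86833410, plus strand). Control kidneys had 258, 296 and 323 CPM. Kidney tumors had 105 to 227 CPM with a median of 167 CPM, all below the controls. The log2 fold change was -0.75 (SE 0.21, edgeR adjusted p = 0.038). The call is close to the threshold: without fusion mouse 1, 2 or 3, or without any of the 3 control mice, the change was -0.83 to -0.66 with adjusted p from 0.0652 to 0.161, and without the count filter adjusted p was 0.0531. Non-transformed kidneys had 191, 200, 233 and 238 CPM, also all below the controls (11.2% of all genes had separate values in these 2 groups), but that difference of -0.41 missed the threshold (edgeR adjusted p = 0.244), as did the difference of -0.36 between tumors and non-transformed kidneys (95% interval -0.81 to 0.08, edgeR adjusted p = 0.227). Without the kidney tumors of mice 4 and 5 the last of these was -0.59 (edgeR adjusted p = 0.0304). Endothelial markers, 9 in all, summed to 771 to 920 CPM in control kidneys and 485 to 888 CPM in kidney tumors, with Pecam1 near equal (log2 fold change -0.03). Their part in the result was not tested.

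The balance of both subunits shows the same data on a single scale. Per kilobase, Hif1a to Epas1 stood at 1.01 to 1.15 in control kidneys and at 1.14 to 1.50 in non-transformed kidneys. In kidney tumors the ratio ran from 2.55 in mouse 5 to 15.02, with a median of 8.50. Retro-orbital tumors had 3.14 to 4.70, brain tumors 7.70 to 12.1, control fetal kidneys 5.03 to 5.53 and dysmorphic fetal kidneys 4.78 to 9.72. The adult kidneys without tumor thus held near equal levels of both transcripts, and all other groups held more Hif1a. The ratios of the 3 tumor sites lie above those of control and non-transformed kidneys without overlap.

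**Figure D2:**
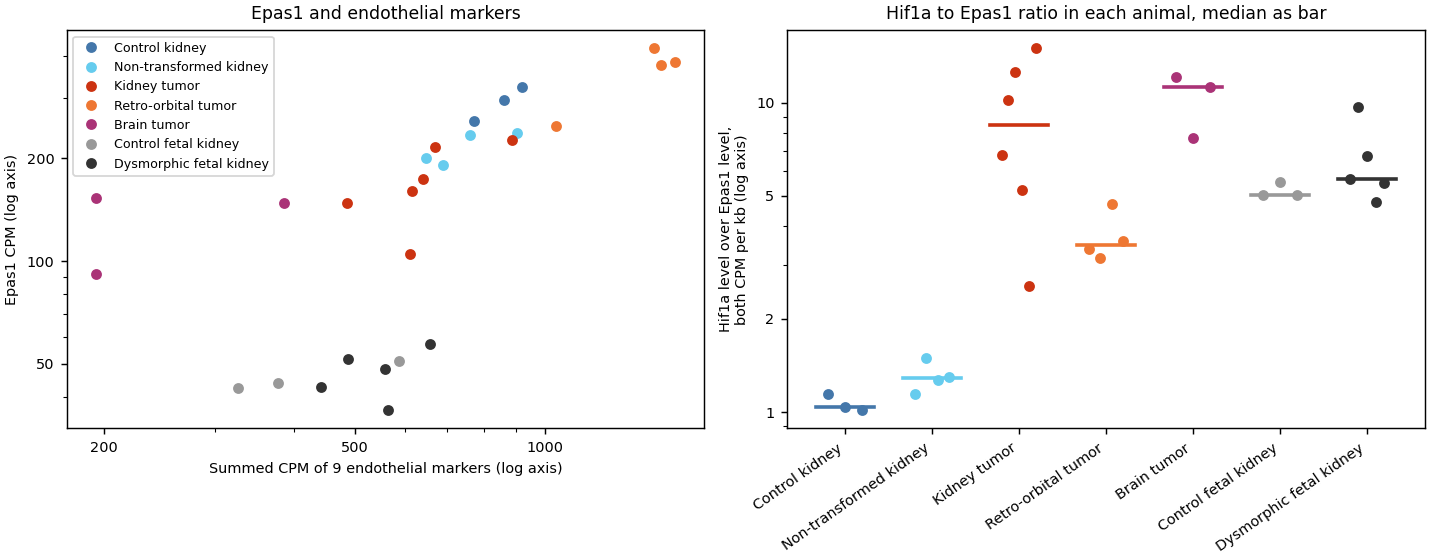
Left, Epas1 (CPM) against the summed level of endothelial markers (CPM) in each of the 28 samples, both axes log. Right, the ratio of Hif1a to Epas1, each per kilobase of exon, in every animal by group on a log axis, with bars for medians. The 4 retro-orbital tumors have the highest endothelial sums and 3 of them the highest Epas1, and the ratio is near 1 only in control and non-transformed kidneys.

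Among the regulators, Vhl encodes the substrate receptor of the ligase that degrades HIF alpha (ENSMUSG00000033933.13, chr6:113623959-113631633, plus strand). Control kidneys had 3.78, 5.62 and 5.78 CPM, kidney tumors 4.18 to 9.38 CPM with a median of 6.16 CPM, and non-transformed kidneys 3.50, 3.60, 4.19 and 4.35 CPM. The first 2 groups overlapped (log2 fold change 0.36, edgeR adjusted p = 0.385). Against non-transformed kidneys the difference was 0.68 (edgeR adjusted p = 0.0714). It passed with DESeq2 (adjusted p = 0.0243), in 3 other alternatives, at adjusted p from 0.0331 to 0.0476, and without the kidney tumors of mice 4 and 5 (0.0199). Of these, the fit with every library as its own sample (0.0331) counts libraries of the same mouse as replicates. Vhl was not called lower in any comparison.

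Egln3 encodes a prolyl hydroxylase that is itself a HIF target (ENSMUSG00000035105.5, chr12:54178981-54203860, minus strand). Its level was 12.1, 14.3 and 26.0 CPM in control kidneys, 8.36 to 21.8 CPM in kidney tumors with a median of 17.0 CPM, and 18.1, 18.4, 23.1 and 38.2 CPM in non-transformed kidneys. Tumors differed from control kidneys by -0.11 (edgeR adjusted p = 0.837, 95% interval -0.86 to 0.64) and from non-transformed kidneys by -0.64 (edgeR adjusted p = 0.162). The groups overlapped, and the sign of the first difference turned when 1 animal was left out.

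Of the targets, Ankrd37 encodes an ankyrin repeat protein (ENSMUSG00000050914.16, chr8:45996902-46005707, minus strand). Control kidneys had 0.68, 0.97 and 1.10 CPM and kidney tumors 1.11 to 3.82 CPM with a median of 3.01 CPM, so that the lowest tumor lay just above the highest control. The log2 fold change was 1.58 (SE 0.43), or 3.00-fold (edgeR adjusted p = 0.0325). Without fusion mouse 2, 3 or 6, or without any control mouse, the change was 1.43 to 1.74 but adjusted p was 0.0525 to 0.136. Non-transformed kidneys had 0.91, 1.08, 1.61 and 2.06 CPM, overlapping the tumors (0.90, edgeR adjusted p = 0.132). The region overlaps Ufsp2, at 108 CPM in control kidneys and 117 CPM in tumors, and Lrp2bp on the opposite strand. Lrp2bp had 0.53 CPM in control kidneys and 0.85 CPM in tumors (log2 fold change 0.69, edgeR adjusted p = 0.171), the same direction as Ankrd37. The strand setting of the count is not stated, so reads of neighbors may add to Ankrd37.

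Adm encodes adrenomedullin, a peptide that widens vessels (ENSMUSG00000030790.15, chr7:110627661-110629820, plus strand). Control kidneys had 5.25, 6.31 and 7.82 CPM, and non-transformed kidneys 1.76, 3.54, 4.46 and 5.13 CPM, all below the controls (log2 fold change -0.77, edgeR adjusted p = 0.427). Values in these groups were separate for 11.2% of all genes. Kidney tumors varied more than for any other target but Car9, from 3.00 CPM in mouse 5 to 59.7 CPM in mouse 6, with a median of 17.6 CPM. The rise over non-transformed kidneys was 2.54 (SE 0.72), or 5.80-fold (edgeR adjusted p = 0.0378), while that over control kidneys, 1.81, missed the threshold (edgeR adjusted p = 0.129). Without fusion mouse 1, 2, 3, 4 or 6 the first call was lost at adjusted p of 0.0537 to 0.131 with changes of 1.95 to 2.78, and with the mouse as a block the change was 1.50 (adjusted p = 0.0779). Against control kidneys the rise passed with DESeq2 (1.80, adjusted p = 0.0459), with sex as a covariate (2.24, adjusted p = 0.0316), without fusion mouse 5 (2.06, adjusted p = 0.0342) and without the kidney tumors of mice 4 and 5 (2.08, adjusted p = 0.035). It also passed with every library as its own sample (1.93, adjusted p = 0.0131), a fit that counts libraries of the same mouse as replicates.

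Vegfa, the growth factor that drives vessel growth (ENSMUSG00000023951.17, chr17:46016993-46032369, minus strand), was not called in any comparison. It had 53.8, 73.7 and 81.9 CPM in control kidneys, 47.3, 60.8, 69.3 and 91.3 CPM in non-transformed kidneys and 33.1 to 85.9 CPM in kidney tumors with a median of 57.1 CPM. The groups overlapped (log2 fold change -0.21, 95% interval -0.89 to 0.47, edgeR adjusted p = 0.646).

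Car9 encodes carbonic anhydrase IX, the target used most to mark HIF activity in kidney cancer (ENSMUSG00000028463.14, chr4:43506966-43513729, plus strand). Control kidneys had 1.88, 2.39 and 3.16 CPM and non-transformed kidneys 1.59, 2.67, 2.91 and 3.92 CPM. In kidney tumors, 5 mice had 0.200 to 1.16 CPM and mouse 5 had 5.64 CPM, the highest value of all groups. With all tumors the log2 fold change was -0.86 (edgeR adjusted p = 0.544). Without fusion mouse 5 it was -2.16 (adjusted p = 0.0232), and against non-transformed kidneys it moved from -1.05 (edgeR adjusted p = 0.41) to -2.19 (adjusted p = 0.032). Without the kidney tumors of mice 4 and 5, which have the highest tubule sums, these changes were -2.67 (adjusted p = 0.00288) and -2.91 (adjusted p = 0.0016). The part of the tubule in the Car9 result was not tested. Car9 was thus lower than in any control kidney in 5 of 6 tumors, and in none of the comparisons was it called higher.

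Bnip3 encodes a mitochondrial protein of mitophagy and cell death (ENSMUSG00000078566.8, chr7:138890836-138909519, minus strand). Control kidneys had 104, 106 and 136 CPM, non-transformed kidneys 94.5, 120.5, 132.7 and 136.7 CPM, and kidney tumors 43.2 to 119 CPM with a median of 92.9 CPM. The differences of -0.33 and -0.45 from both kidney groups missed the threshold (edgeR adjusted p = 0.418 and 0.226).

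Ndrg1, a stress-responsive gene of differentiation (ENSMUSG00000005125.12, chr15:66929318-66969640, minus strand), fell the most. Control kidneys had 1014, 1269 and 1459 CPM and kidney tumors 93.0 to 591 CPM with a median of 279 CPM, with no overlap. The log2 fold change was -1.98 (SE 0.53), a 3.94-fold lower level (edgeR adjusted p = 0.032). Non-transformed kidneys had 462, 689, 1149 and 1265 CPM, and the difference of -1.54 missed the threshold (edgeR adjusted p = 0.0688; DESeq2 adjusted p = 0.0224). Without fusion mouse 3 or 6, or any control mouse, the call against control kidneys was lost, with changes of -2.09 to -1.82 and adjusted p of 0.0538 to 0.122. Tumors of mice 1, 4 and 5 had 385, 508 and 591 CPM, and those of mice 2, 3 and 6 had 93.0, 136.5 and 172.8 CPM, the same division as in the proximal tubule sum. Of the 9 tubule markers 0 were called by edgeR or DESeq2 and 1 had an unadjusted p under 0.05, with a median log2 fold change of -2.08, near that of Ndrg1. Distal nephron and collecting duct markers had a median of -2.03 (0 of 9 called by edgeR or DESeq2 and 0 at an unadjusted p under 0.05), with sums of 24.0 to 6597 CPM compared to 7091 to 7861 CPM in control kidneys. Podocyte markers had a median of -1.71 (0 of 6 called by edgeR, 1 by DESeq2 and 1 at an unadjusted p under 0.05), with sums of 73.1 to 277 CPM compared to 376 to 465 CPM. The part of nephron content in the result was not tested. Without the tumors of mice 4 and 5, Ndrg1 differed from non-transformed kidneys by -2.21 (adjusted p = 0.00942).

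**Figure D3:**
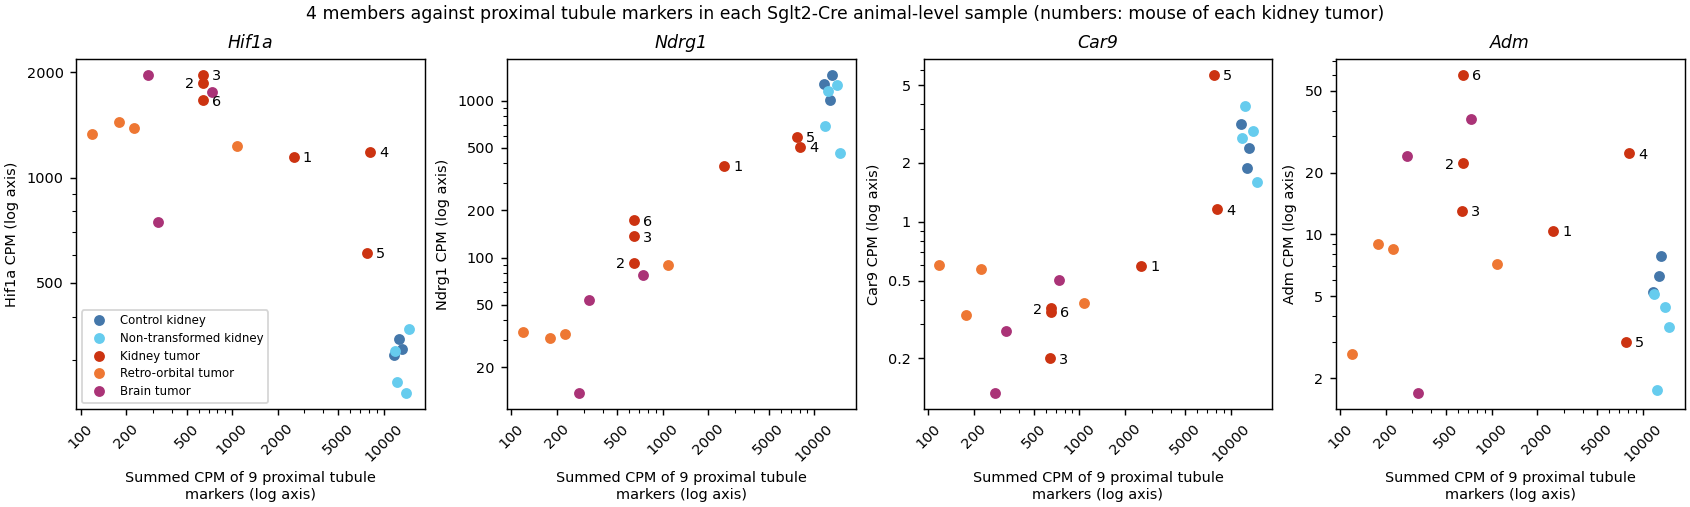
Levels of Hif1a, Ndrg1, Car9 and Adm (CPM) in every sample of the 5 adult groups against the summed level of the 9 proximal tubule markers in the same sample (CPM), both axes log, with the mouse number beside each kidney tumor. Kidney tumors of mice 1, 4 and 5 carry higher tubule sums, higher Ndrg1 and lower Hif1a than those of mice 2, 3 and 6.

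Kidney tumors and non-transformed kidneys came from the same mice in 4 cases. With 2 of 10 genes called (Hif1a and Adm, both higher), compared to 17.1% of all 21930 genes, 12.1% higher and 5.02% lower, the genes stood near the background in number. The median log2 fold change was -0.28 for the 10 genes and -0.02 for all. With the mouse as a block, Hif1a alone was called. Non-transformed kidneys, the tissue of fusion mice outside the tumors, differed from control kidneys in 0 of 10 genes by edgeR and in 0 by DESeq2, with 1 gene, Epas1, at an unadjusted p under 0.05. Of all 21019 genes, 0.00952% were called by edgeR and 2.35% by DESeq2 in that comparison, and 11.7% had an unadjusted p under 0.05.

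**Figure D4:**
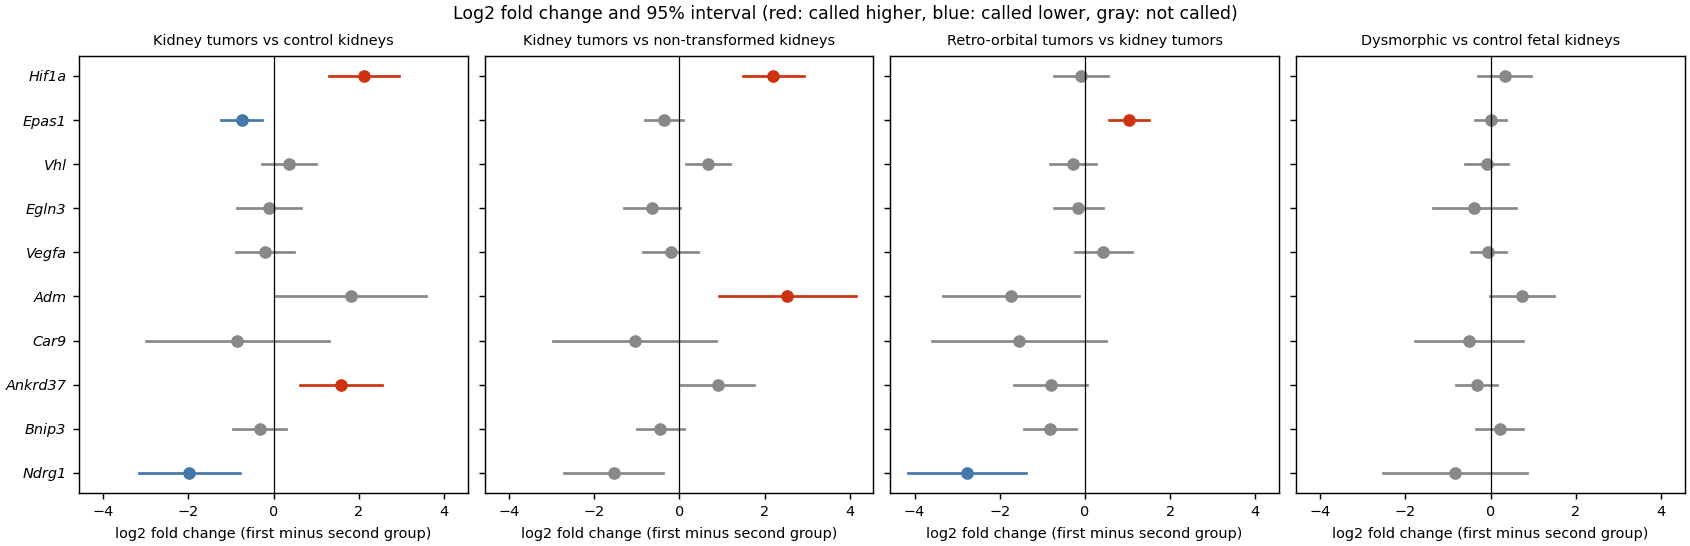
Log2 fold change of the 10 genes in 4 comparisons with its 95% interval from edgeR, in red where called higher, blue where called lower and gray where not called. Hif1a and Ankrd37 are called higher and Epas1 and Ndrg1 lower in kidney tumors compared to control kidneys, and 0 genes pass in the fetal comparison.

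Repeat libraries show how far these levels vary within an animal. 5 mice gave pairs of kidney tumor libraries. For Hif1a the higher library of a pair was at most 1.73 times the lower, compared to 3.23 times between the highest and lowest mouse. For Ndrg1 these were 2.06 and 6.35 times, for Adm 4.77 and 19.9 times, for Car9 4.39 and 28.3 times, and for Epas1 1.47 and 2.15 times. Mouse 5 gave no pair and set an end of the range between mice for each of these genes. Without mouse 5, Hif1a ranged from 1148 to 1966 CPM between mice, about as wide as the widest pair. In the 3 control mice the largest ratio within a mouse over all 10 genes was 2.03 times, for Adm. With mouse 5 included, libraries of the same mouse came closest to differing as much as the mice for Ankrd37, at 3.00 times within and 3.44 times between mice. Bnip3 followed, at 2.08 and 2.75 times.

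Retro-orbital tumors, from 4 fusion mice, were compared to kidney tumors to ask whether the pathway differs between tumor sites. Epas1 rose and Ndrg1 fell, 2 of 10 genes compared to 17.7% of all 22136 genes (8.26% higher and 9.45% lower). Values of both sites were separate for each of these, compared to 16.1% of all genes. The median log2 fold change was -0.55 for the 10 genes and -0.09 for all.

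Epas1 had 375.7, 419.8, 249.3 and 382.7 CPM in the retro-orbital tumors of mice 2, 3, 5 and 6, above the 227 CPM of the highest kidney tumor. The log2 fold change was 1.02 (SE 0.21), or 2.03-fold (edgeR adjusted p = 0.0098). The call was lost with the mouse as a block (1.19, adjusted p = 0.063) and without mouse 2 or 3 (1.004 and 0.903, adjusted p = 0.0568 and 0.0663). Endothelial markers moved with it: 6 of 9 were called higher in retro-orbital tumors, with log2 fold changes of 1.46 for Pecam1 (edgeR adjusted p = 0.00139) and 2.27 for Cdh5 (edgeR adjusted p = 0.00116). Their sums were 1529, 1493, 1041 and 1613 CPM in mice 2, 3, 5 and 6, so that mouse 5 was lowest in both Epas1 and the markers. The part of the endothelium in the Epas1 result was not tested.

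Hif1a was 1331, 1389, 1235 and 1446 CPM in these tumors, inside the kidney tumor range (log2 fold change -0.10, 95% interval -0.73 to 0.54, edgeR adjusted p = 0.848). Ndrg1, at 33.7, 32.6 and 30.7 CPM in mice 2, 3 and 6 and 90.0 CPM in mouse 5, lay below every kidney tumor (-2.77, SE 0.62, 6.82-fold lower, edgeR adjusted p = 0.0144). The call was lost without mouse 3 (-2.78, adjusted p = 0.0531) or mouse 6 (-2.73, adjusted p = 0.0591). The proximal tubule sum was 119, 225 and 179 CPM in mice 2, 3 and 6 and 1080 CPM in mouse 5, with a median marker change of -3.41. Of its 9 markers 0 were called by edgeR, 2 had an unadjusted p under 0.05 and DESeq2 called 8 lower, and its part was not tested.

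Bnip3 had 69.3, 37.0, 45.1 and 58.7 CPM, a difference of -0.82 that missed the threshold (edgeR adjusted p = 0.066) and passed with the mouse as a block (-0.88, adjusted p = 0.0293), without mouse 1 (-0.91, adjusted p = 0.016) and with DESeq2 (adjusted p = 0.0497). With the block, Bnip3 and Ndrg1 were the 2 genes called. Adm had 2.61, 8.48, 7.20 and 9.03 CPM (-1.74, edgeR adjusted p = 0.121), a difference that passed with DESeq2 (-1.69, adjusted p = 0.0459). Ankrd37 had 1.89, 2.27, 0.96 and 1.23 CPM (-0.81, edgeR adjusted p = 0.177) and Car9 had 0.601, 0.572, 0.382 and 0.333 CPM (-1.56, edgeR adjusted p = 0.265). The Car9 difference turned to 0.35 (adjusted p = 0.617) without the kidney tumors of mice 4 and 5. The ranges of Adm, Ankrd37 and Car9 overlapped those of the kidney tumors. Vegfa had 86.4, 120.9, 62.8 and 59.5 CPM and went the other way without passing (0.43, edgeR adjusted p = 0.339).

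Brain tumors came from mice 1, 2 and 4 and carried brain tissue to unequal extents, with 10 brain markers summing to 126, 1856 and 567 CPM. In these, Hif1a was 1963, 745 and 1760 CPM, Epas1 153, 91.7 and 148 CPM and Ndrg1 13.7, 54.1 and 77.2 CPM. The tumor of mouse 2, with the most brain marker RNA, was the lowest in Hif1a and Epas1, and the part of brain tissue was not tested. None of the 10 genes was called against kidney tumors by edgeR, compared to 8.74% of all 23391 genes, with 1 gene (Ndrg1) at an unadjusted p under 0.05 and medians of 0.11 for the 10 genes and 0.03 for all. Ndrg1 lay below every kidney tumor (-2.62, edgeR adjusted p = 0.066), while 15.2% of all genes had separate values at these sites, and was the 1 gene that DESeq2 called (adjusted p = 0.00249). Proximal tubule markers had a median change of -4.175 (0 of 9 called by edgeR), with sums of 278 to 735 CPM against 641 to 8104 CPM in kidney tumors. The medians were -5.185 for distal nephron and collecting duct markers (0 of 9 called) and -2.895 for podocyte markers (1 of 6 called lower). The part of these nephron markers was not tested. Hif1a differed by 0.17 (95% interval -0.73 to 1.07, edgeR adjusted p = 0.825), Epas1 by -0.30 (adjusted p = 0.503) and Car9, at 0.133, 0.277 and 0.504 CPM, by -2.09 (adjusted p = 0.279).

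Compared to retro-orbital tumors, Epas1 fell in brain tumors by 1.41 on the log2 scale (SE 0.26, 2.66-fold lower, edgeR adjusted p = 0.0497), as 1 of 10 genes called against 1.73% of all 21037 genes. Its values did not overlap between these sites, which held for 18.5% of all genes. The call sits at the threshold and was lost without mouse 2, 3, 4, 5 or 6 (-1.55 to -1.19, adjusted p = 0.0524 to 0.19), with upper quartile factors (adjusted p = 0.0545) and without the count filter (adjusted p = 0.0578). Endothelial markers were called lower in 6 of 9 cases in the same comparison, with sums of 194, 194 and 386 CPM in brain tumors, and their part was not tested. Ankrd37, at 1.42, 5.47 and 3.80 CPM, Bnip3, at 72.9, 51.9 and 157.5 CPM, and Adm, at 24.0, 1.69 and 36.4 CPM, differed by 1.20, 0.86 and 1.62 without passing (edgeR adjusted p = 0.246, 0.264 and 0.338). Vegfa ranged from 28.8 to 117 CPM in brain tumors (-0.43, edgeR adjusted p = 0.693).

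In the fetal line, 0 of 10 genes were called between dysmorphic and control kidneys by edgeR, compared to 2.67% of all 22690 genes (2.40% higher), and 0 by DESeq2 or at an unadjusted p under 0.05. The median log2 fold change was -0.07 for the 10 genes and -0.04 for all. Hif1a was 226, 256 and 270 CPM in control fetal kidneys and 243.3, 249.1, 259.8, 341.1 and 528.3 CPM in dysmorphic kidneys (log2 fold change 0.33, 95% interval -0.30 to 0.95, edgeR adjusted p = 0.552). Adm was 1.18, 1.19 and 2.01 CPM against 1.76, 2.02, 2.35, 2.83 and 3.57 CPM (0.73, edgeR adjusted p = 0.252). Ankrd37, with 7.19, 7.41 and 10.5 CPM in controls and 5.62 to 8.81 CPM in dysmorphic kidneys (-0.33, edgeR adjusted p = 0.426), was higher in both fetal groups than in every adult sample. The margin was small, as the highest brain tumor had 5.47 CPM. Brain tumors and dysmorphic kidneys had separate values for 37.2% of all genes, and the share for all adult samples was not counted.

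Egln3, at 29.0, 74.0 and 81.2 CPM in controls and 23.8 to 81.3 CPM in dysmorphic kidneys (-0.38, edgeR adjusted p = 0.668), and Ndrg1, at 61.8, 269 and 375.5 CPM and 46.9 to 282 CPM (-0.84, edgeR adjusted p = 0.57), varied as much within as between the groups. Bnip3 (0.21, edgeR adjusted p = 0.68) and Car9 (-0.52, edgeR adjusted p = 0.65) also overlapped. Epas1 was 42.5, 43.8 and 50.8 CPM in controls and 36.6 to 57.0 CPM in dysmorphic kidneys, the lowest of all groups. Proximal tubule markers had a median log2 fold change of -2.46 (0 of 9 called by edgeR, 6 at an unadjusted p under 0.05, 5 by DESeq2) and skeletal muscle markers were called higher in 7 of 8 cases, with sums of 2952 to 6798 CPM compared to 1241 to 1490 CPM. Their part in these values was not tested.

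The difference between the adult and the fetal effect was tested directly, as the change in kidney tumors minus that in dysmorphic kidneys. Hif1a (1.85, SE 0.48, edgeR adjusted p = 0.026) and Ankrd37 (1.95, SE 0.49, edgeR adjusted p = 0.0222) differed, 2 of 10 genes compared to 8.94% of all 24444 genes. Epas1 (-0.73, edgeR adjusted p = 0.101), Adm (1.12, edgeR adjusted p = 0.463) and Ndrg1 (-1.12, edgeR adjusted p = 0.512) did not pass. The Hif1a call was lost without any of the 3 control mice, control fetus 1 or 2, or dysmorphic fetus 4 (1.64 to 1.89, adjusted p = 0.0503 to 0.0759), and the Ankrd37 call without control mouse 2 or 3 or control fetus 3 (1.65 to 1.99, adjusted p = 0.0625 to 0.0782). Age, Cre line and tumor against dysmorphic tissue differ together here and cannot be told apart. The list of genes that follow TFE3 activity also differed between the lines, with sums of 103 to 805 CPM in dysmorphic and 50.9 to 71.2 CPM in control fetal kidneys, against 3591 to 8068 CPM in kidney tumors. Of these 6 genes, 3 were called higher in the difference (median 3.42), and their part in the result was not tested.

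Other genes of the pathway were counted over 5 lists. All counts against control kidneys stand beside 12.5% of all genes called higher and 6.51% called lower. Markers of other cells moved in the same comparison. Proliferation markers were called higher in 8 of 8 cases (median log2 fold change 3.26), fibroblast and pericyte markers in 4 of 9 (median 0.84) and macrophage and leukocyte markers in 2 of 8 (median 1.86). Their sums in kidney tumors and control kidneys were 462 to 698 and 125 to 145 CPM, 1050 to 2291 and 513 to 776 CPM, and 252 to 738 and 174 to 188 CPM, in that order, with no overlap in any of these lists. Of 10 immediate early genes, which respond to stress and tissue handling, Atf3, Nr4a1 and Junb were called higher and Zfp36 lower, and their sums of 306 to 854 CPM in kidney tumors did not overlap the 126 to 256 CPM of control kidneys. The part of all these markers in the changes of the pathway lists was not tested.

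In kidney tumors compared to control kidneys, 6 of 18 glycolytic HIF targets were called higher and 0 lower by edgeR, with 0 lower by DESeq2 or at an unadjusted p under 0.05, and the median log2 fold change was 0.65. Hk2, which encodes a hexokinase, had 1734 ± 807 CPM (SD, n = 6) in tumors and 1.39 ± 0.19 CPM (SD, n = 3) in control kidneys. Its log2 fold change was 10.31 (edgeR adjusted p = 0.000131). Slc16a3, a lactate exporter, rose by 6.82 (edgeR adjusted p = 0.00181) and Pfkfb3, a regulator of phosphofructokinase, by 3.75 (edgeR adjusted p = 0.00154). Pfkp, Gbe1 and Aldoa rose by 1.87, 1.43 and 1.02 (edgeR adjusted p = 0.0107, 0.0441 and 0.0299). Classical targets of the same list gave smaller values that missed the threshold: Slc2a1 0.67, Pgk1 0.56, Ldha 0.09 and Pdk1 -0.34 (edgeR adjusted p = 0.207, 0.186, 0.73 and 0.394). Hk2, Slc16a3 and Pfkfb3 were called in each of the 9 fits without an animal, while the count for the list ranged from 3 to 8, with 3 without control mouse 2 or 3. With sex as a covariate 14 glycolytic and 8 stress and metabolic targets were called higher, in a fit that called 16.0% of all genes higher and 9.94% lower.

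Among 12 vascular HIF targets, 4 were called higher and 0 lower by edgeR (1 lower at an unadjusted p under 0.05 and 1 by DESeq2), with a median of -0.04. Those described here are Pgf, a ligand related to Vegfa (2.23, edgeR adjusted p = 0.00394), the chemokine receptor Cxcr4 (1.37, edgeR adjusted p = 0.0172) and Angpt2 (1.37, edgeR adjusted p = 0.039). The Vegfa receptors Flt1 (-0.84, edgeR adjusted p = 0.0658) and Kdr (-0.47, edgeR adjusted p = 0.404) did not pass. Without control mouse 2 or 3 the count fell to 1, Pgf, which was called in all 9 fits. Of 5 matrix targets, Plod2 (0.73, edgeR adjusted p = 0.0308) and Ero1l (1.09, edgeR adjusted p = 0.0375) were called higher, and 0 to 3 with an animal left out, with 0 without fusion mouse 2, 3 or 6 or any control mouse.

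Of 19 stress and metabolic targets, 5 were called higher and 2 lower, with a median of 0.16. Hmox1, which encodes heme oxygenase (3.28, edgeR adjusted p = 0.00097), Insig2 (2.22, edgeR adjusted p = 0.00257), Ccnd1, which encodes cyclin D1 (2.09, edgeR adjusted p = 0.0057), Ppp1r3c (2.49, edgeR adjusted p = 0.0261) and Ddit4 (0.98, edgeR adjusted p = 0.027) rose. Mxi1 (-0.78, edgeR adjusted p = 0.0271) and Rora (-0.72, edgeR adjusted p = 0.0061) fell. Hmox1, Insig2, Ccnd1 and Rora kept their calls in all 9 fits, and leaving out an animal gave 3 to 7 rises and 1 to 3 falls, the fewest of both without any control mouse. Of 15 genes of the HIF machinery, the coactivators Ep300 (-0.53, edgeR adjusted p = 0.0359) and Crebbp (-0.34, edgeR adjusted p = 0.0484) were called lower and 0 higher by edgeR (3 higher at an unadjusted p under 0.05 and 2 by DESeq2), with a median of -0.08. Crebbp lost its call in all 9 fits without an animal and Ep300 in 7 of them. Arnt, the partner of both alpha subunits, had 151 CPM in control kidneys and 124 CPM in tumors (-0.26, edgeR adjusted p = 0.212), and Egln1, the main prolyl hydroxylase, 45.8 and 42.2 CPM (-0.10, edgeR adjusted p = 0.777).

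Against non-transformed kidneys, where 12.1% of all genes were called higher and 5.02% lower, 7 of 18 glycolytic (median 0.75) and 4 of 12 vascular targets (median 0.06) were called higher. Of 19 stress and metabolic targets (median 0.41), 5 were called higher and 1, Rora (-0.40, edgeR adjusted p = 0.0418), lower. Of 5 matrix targets 0 were called by edgeR (3 at an unadjusted p under 0.05 and 1 by DESeq2). In the machinery Arnt2 rose and Siah2 fell (1.05 and -0.76), while Ep300 and Crebbp were not called. With the mouse as a block, which left 4.01% of all genes called higher and 0.102% lower, 4 glycolytic and 4 stress and metabolic rises remained, Hk2 (5.27, adjusted p = 0.00579), Slc16a3 (4.66, adjusted p = 0.00579) and Hmox1 (2.72, adjusted p = 0.0212) among them. The block left 0 of the vascular rises, with log2 fold changes near those without it for Pgf (2.04 and 2.02, adjusted p = 0.0543 with the block), Angpt2 (1.73 and 1.75, adjusted p = 0.0752) and Cxcr4 (1.33 and 1.37, adjusted p = 0.135), and 0 calls in the machinery or among the stress and metabolic falls. Proliferation markers were called higher in 8 of 8 cases in this comparison, fibroblast and pericyte markers in 3 of 9, macrophage and leukocyte markers in 3 of 8 and immediate early genes in 2 of 10, and their part was not tested. Leaving out an animal gave 3 to 7, 2 to 4 and 3 to 5 rises in the first 3 lists, with the lowest counts without mouse 4 for the glycolytic list, without mouse 1 or 3 for the vascular list and without mouse 1 for the stress list. Rora was called only without mouse 1. Arnt2 was called in 1 of the 6 fits without a mouse, that without mouse 5, and Siah2 in that without mouse 4.

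In retro-orbital compared to kidney tumors, 4 of 68 genes of the lists were called higher (8.26% of all genes) and 10 lower (9.45% of all). Of 11 vascular targets tested, Pgf (2.97), Cxcl12 (2.46), Cxcr4 (2.04) and Angpt2 (1.70) were called higher and Nt5e (-3.03), Adora2b (-2.60) and Angptl4 (-1.27) lower, with a median of 0.83. Endothelial markers, called higher in 6 of 9 cases (median 1.13), and fibroblast and pericyte markers, called higher in 3 of 9 (median 1.12), moved in the same tumors, the latter with sums of 2337 to 3896 CPM compared to 1050 to 2291 CPM in kidney tumors. Proliferation markers were called higher in 6 of 8 cases (median 0.99), with sums of 825 to 1336 CPM compared to 462 to 698 CPM. The part of these markers in the changes of the lists was not tested. Pgf and Cxcr4 kept their calls in all 6 fits without a mouse (edgeR adjusted p = 0.00116 and 0.00266 with all mice), while Nt5e lost its call in each and Cxcl12 and Angptl4 in 5. Pfkl (-2.26) and Ldha (-1.28, edgeR adjusted p = 0.00325) fell among 18 glycolytic targets, with a median of -0.58, and 1 to 5 fell when a mouse was left out, 1 without mouse 3 or 6. In the machinery Arnt2 (-2.60, edgeR adjusted p = 0.00208), Cited2 (-1.14, edgeR adjusted p = 0.00576) and Egln1 (-1.03, edgeR adjusted p = 0.00842) fell. Egln1 had 42.2 CPM in kidney and 21.1 CPM in retro-orbital tumors, and its call was lost without mouse 2, 3 or 6 (adjusted p up to 0.0564). Of 5 matrix targets P4ha2 fell (-0.59, edgeR adjusted p = 0.0349), a call kept only without mouse 4. Of 19 stress and metabolic targets Vldlr, a lipoprotein receptor, fell (-0.83, edgeR adjusted p = 0.0156) and lost its call without mouse 3 (adjusted p = 0.0523). With the mouse as a block, the calls of Cxcl12 (3.62, adjusted p = 0.107), Nt5e (-1.62, adjusted p = 0.173) and P4ha2 (-0.62, adjusted p = 0.0635) were lost, and 4 glycolytic and 6 stress and metabolic targets were called lower, in a fit that called 6.09% of all genes higher and 6.99% lower. Without mouse 6 the vascular rises were 2 in number, and the vascular falls were 1 without mouse 2, 3, 4, 5 or 6 and 2 without mouse 1.

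In brain compared to kidney tumors 4 of 68 genes of the lists were called, compared to 8.74% of all genes. These were Insig2 (1.29, edgeR adjusted p = 0.0302) and Aldoc (2.78, edgeR adjusted p = 0.0488) higher and Cited2 (-1.05, edgeR adjusted p = 0.0396) and Lox (-3.72, edgeR adjusted p = 0.0491) lower. Both tumors came from the same mice in 3 cases, and with the mouse as a block 0 of all 21827 genes were called, so these 4 calls were lost (adjusted p = 0.29 to 0.415). In the same comparison brain markers were called higher in 3 of 10 cases (median 4.71), and fibroblast and pericyte markers were called lower in 4 of 9 (median -1.60) and endothelial markers in 2 of 9 (median -1.20). Compared to retro-orbital tumors, where 3 of 68 genes of the lists and 1.73% of all genes were called, Arnt2 was higher (2.35, edgeR adjusted p = 0.0248) and Cxcr4 (-3.02, edgeR adjusted p = 0.0292) lower. All 6 of these calls were lost in 3 or more of the 6 fits without a mouse, and Lox in all 6. Between brain and retro-orbital tumors endothelial markers were called lower in 6 of 9 cases (median -2.58) and fibroblast and pericyte markers in 4 of 9 (median -2.18), and the part of markers in either comparison was not tested. In non-transformed against control kidneys 0 of 69 genes of the lists were called by edgeR, 12 had an unadjusted p under 0.05 (11.7% of all genes) and DESeq2 called 2 (2.35% of all), with a median of 0.02.

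In the fetal comparison, Aldoa (1.07), Slc16a3 (1.49), Nt5e (1.83), P4ha1 (0.93), P4ha2 (1.60) and Lox (0.86) were called higher, each at an edgeR adjusted p of 0.035, in 2 of 18 glycolytic, 1 of 11 vascular and 3 of 5 matrix targets, or 6 of 68 genes of the lists, compared to 2.40% of all genes called higher. Each call was lost in 6 of 8 fits that left out a fetus (adjusted p up to 0.172) and with sex as a covariate (adjusted p = 0.056 to 0.0582). Skeletal muscle markers rose in 7 of 8 cases in the same kidneys, and fibroblast and pericyte markers summed to 6460 to 13059 CPM in dysmorphic and 3654 to 4546 CPM in control kidneys, with 1 of 9 called higher and a median of 1.03. Immediate early genes were called higher in 3 of 10 cases (median 0.68), with sums of 160 to 213 CPM compared to 103 to 141 CPM, and macrophage and leukocyte markers in 1 of 8, with sums of 113 to 187 CPM compared to 88.7 to 95.3 CPM. The part of these markers in the 6 rises was not tested. In the difference between the adult and the fetal change, 10 of 69 genes of the lists were called higher and 2 lower, compared to 8.94% of all genes called in either direction. Hk2 (8.16), Slc16a3 (5.37) and Pfkfb3 (3.51) were higher in this difference and P4ha2 (-1.70, edgeR adjusted p = 0.0108) and Rora (-1.77, edgeR adjusted p = 0.00124) lower, and these 5 were called in all 17 fits without an animal. Proliferation markers were called higher in 7 of 8 cases in the same difference (median 3.42), fibroblast and pericyte markers in 2 of 9, macrophage and leukocyte markers in 1 of 8 and immediate early genes in 2 of 10, and their part was not tested.

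**Figure D5:**
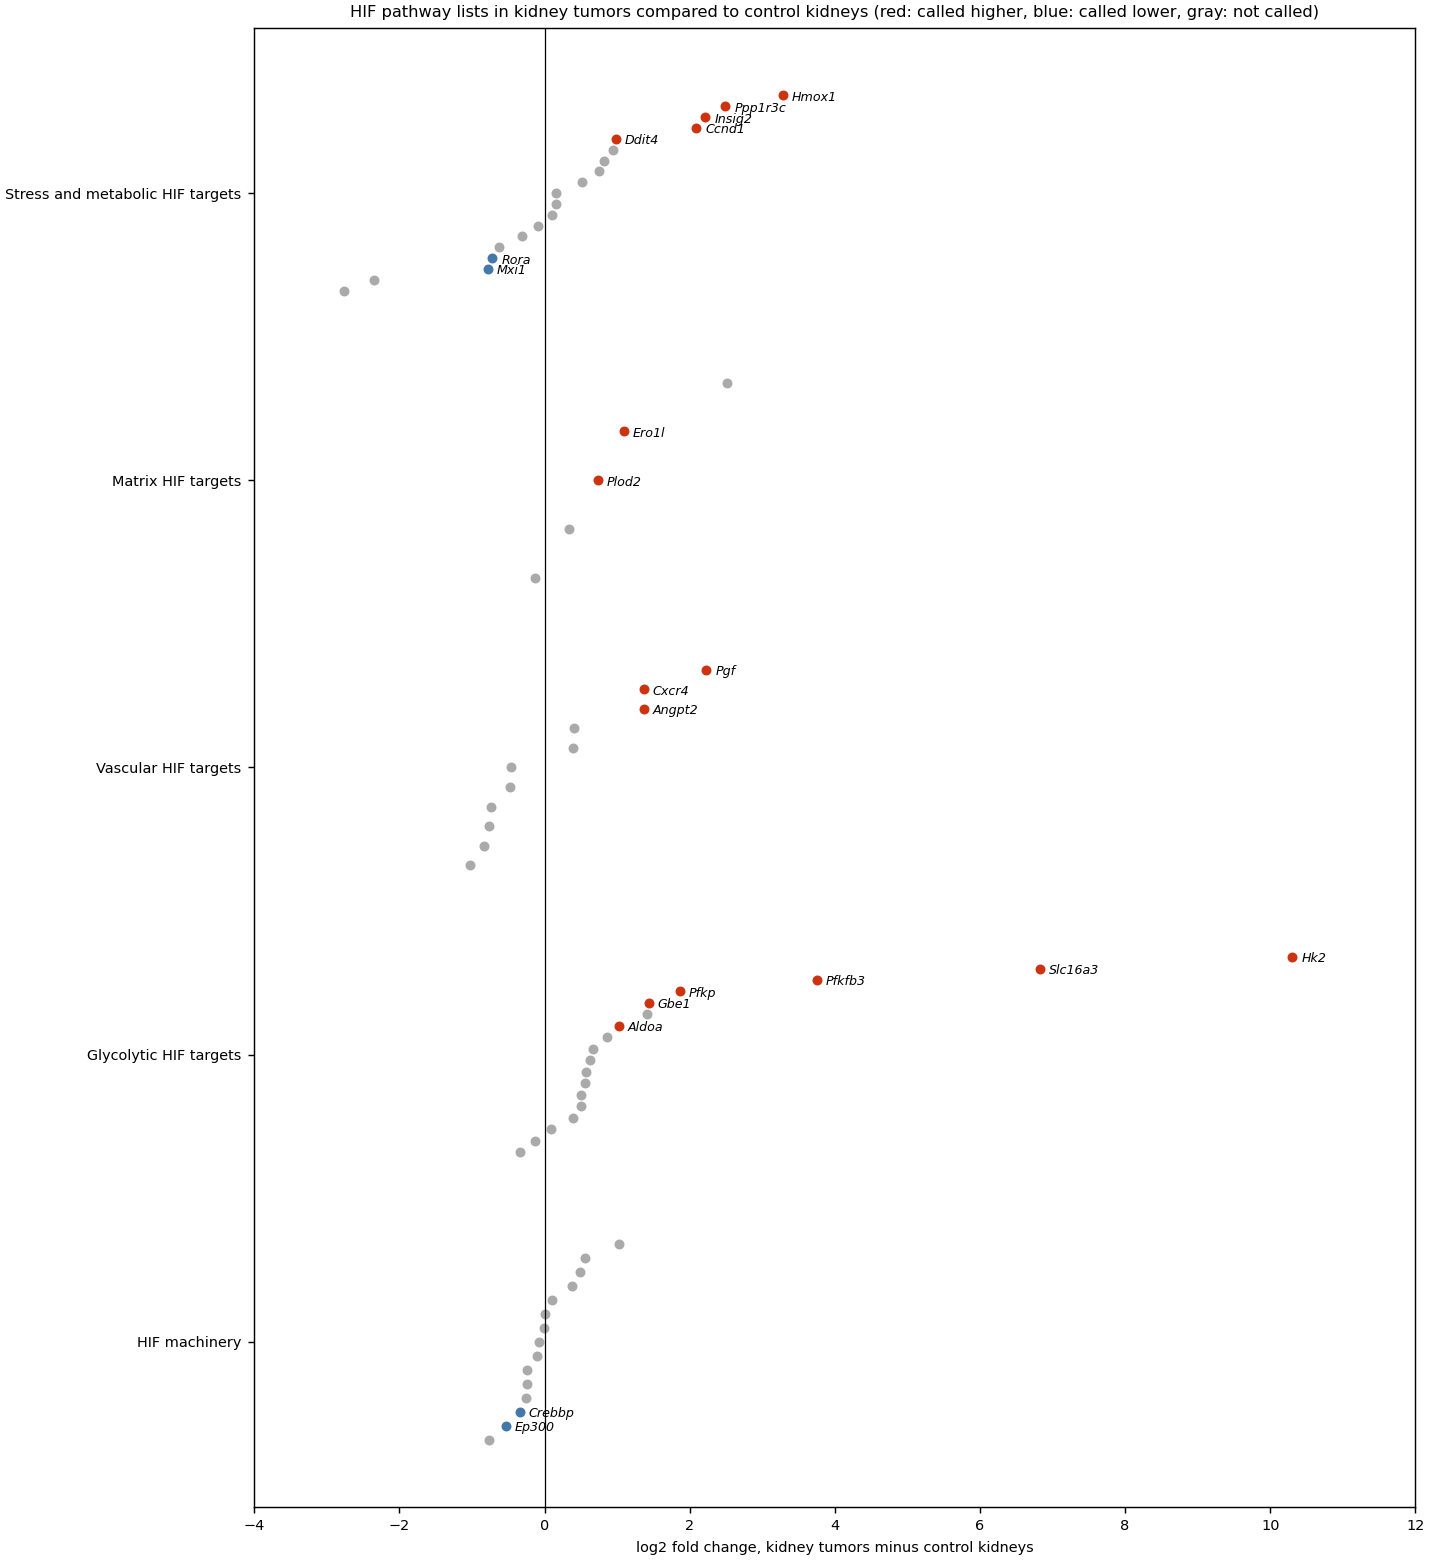
Log2 fold change of the tested genes of the 5 HIF pathway lists, apart from 1 vascular target that is not reported here, kidney tumors compared to control kidneys, with red points called higher, blue called lower and gray not called by edgeR. Hk2 at 10.31 and Slc16a3 at 6.82 lie far from the other glycolytic targets.

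The genes whose levels most resembled those of each member were looked up by Pearson correlation of log2 CPM over the 20 adult samples and 15660 genes, as a description, since these samples share mice and fall into groups. Rragc (r = 0.983) was among the genes nearest to Hif1a, and Epas1 was nearest to She (r = 0.928) and Scarf1 (r = 0.924). Ndrg1 was nearest to Sgms2 and Aass (both r = 0.984), Car9 to Tlr12 (r = 0.953) and Bnip3 to Mmadhc (r = 0.908). Vhl was nearest to Tubg1 (r = 0.921), Ankrd37 to Morn4 (r = 0.903), Adm to Ss18 (r = 0.881), Vegfa to Cox15 (r = 0.802) and Egln3 to Pcbp2 (r = 0.761). Among the 10 genes, Adm with Vhl (r = 0.863) and Car9 with Ndrg1 (r = 0.839) were most alike, and Hif1a ran opposite to Car9 (r = -0.861) and Ndrg1 (r = -0.82).

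In the order of group means, 5 pairs of neighboring groups had values that did not overlap, each given here with the share of all genes that did not overlap between the same groups. For Hif1a the 3 tumor groups overlapped each other, and the lowest of them by mean, the retro-orbital tumors, stood apart from control kidneys, the next group (56.0% of all genes). For Epas1 control kidneys stood apart from non-transformed kidneys (11.2%) and brain tumors from dysmorphic fetal kidneys (37.2%). For Ankrd37 dysmorphic fetal kidneys stood apart from brain tumors (37.2%), and for Adm control kidneys from non-transformed kidneys (11.2%). Neighboring groups of the other 6 genes overlapped throughout.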

How the data were processed

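The authors deposited raw counts per gene in 2 tables, with no normalization. Per the labels, libraries were stranded, from total RNA with ribosomal RNA kept, and the submitters' processing notes list FastQC, MultiQC, Bowtie2, STAR 2.5.2a and GRCm38/mm10. The counter, its strand setting and the annotation are not given in the sources used here. Between 79.04% and 84.33% of counts from 1 to 20 were even, so fragments may be fewer than counts, and halved counts were an alternative.

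Libraries of the same animal and group were summed, since the animal is the replicate. The 8 pairs of libraries so summed were not duplicates (chi-square per degree of freedom of at least 45.2). Each fit used only the groups compared, in edgeR 4.0.16 under R 4.3.3 (TMM, filterByExpr, quasi-likelihood F-test, Benjamini-Hochberg over all genes tested, threshold 0.05). SE is the absolute log2 change over the root of F. The code was tested on simulated data. Levels per kilobase use exon unions of GENCODE M21. Sex was read from Y-linked transcripts (above 50 CPM, male). Intervals at 95% and p-values cover the spread between animals, except with every library as its own sample. That fit counts libraries of the same mouse as replicates. The main fits do not pair tissues of the same mouse.

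Tissues of the same mouse pair the samples. After subtraction of group means, the tissues of a mouse had correlations over genes of 0.258 to 0.324 for kidney and retro-orbital tumors (4 mice), -0.048 to 0.163 for kidney tumors and non-transformed kidneys (4 mice) and -0.074 to -0.066 for kidney and brain tumors (3 mice).

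The 10 genes, the pathway lists and the markers were chosen with earlier results of these data known. Any gene of the lists could be named, together with overlapping genes and the nearest genes by correlation. A few of them are left unreported here. Alternatives were DESeq2 1.42.0, other scaling factors, other count filters, every library as its own sample, a joint fit of the Sglt2-Cre groups, halved counts, sex as a covariate, the mouse as a block and fits without each animal. Leaving out the kidney tumors of mice 4 and 5 was chosen after seeing the data.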

Additional observations from a re-analysis of the deposited data

Results flagged for a closer look

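Car9 in the kidney tumor of mouse 5 was 5.64 CPM, and the next highest of the 6 kidney tumors had 1.16 CPM, a gap of 0.824 of the group's range. Ndrg1 in the retro-orbital tumor of mouse 5 was 90.0 CPM, and the next of the 4 had 33.7 CPM, a gap of 0.95 of the range. Both gaps exceeded Dixon's critical value, among 40 tests of a gene in a group, where chance gives about 5%, so 2 of 40 is the number chance would give. Both samples are from mouse 5, which also had the lowest Hif1a and Adm among kidney tumors and, with mouse 4, the highest proximal tubule sums.

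The change with the fusion was unlike in the adult and fetal lines for Hif1a, by 1.85 on the log2 scale, and for Ankrd37, by 1.95, as given with their tests in the report.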

How the results depend on the processing

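The number of the 10 genes called moved by 1.5 times or more as follows. For kidney tumors against non-transformed kidneys (2 called) it was 4 with DESeq2, 4 with every library as its own sample, 3 with at least 1 CPM, 3 in the joint fit, 1 with the mouse as a block and 6 without the kidney tumors of mice 4 and 5. Against control kidneys (4 called) it was 6 without those tumors. For retro-orbital against kidney tumors (2 called) it was 4 with DESeq2, and for brain against kidney tumors (0 called) it was 1 with DESeq2, with every library as its own sample and in the joint fit. For brain against retro-orbital tumors (1 called) it was 0 with upper quartile factors and without the count filter, and for the difference between lines (2 called) 3 without the kidney tumors of mice 4 and 5. Leaving out each animal gave 1 to 6 for kidney tumors against control kidneys, 1 to 3 against non-transformed kidneys, 0 to 3 for retro-orbital and 0 to 0 for brain against kidney tumors, 0 to 1 for brain against retro-orbital tumors, 0 to 2 for the difference between lines, and 0 to 0 in the other 2 comparisons. The block paired by mouse left 0 called for brain against kidney tumors and 2 for retro-orbital against kidney tumors, and a block by the prefix that fetal sample titles share left 0. Brain and retro-orbital tumors share 1 mouse, so that pair of sites could not be blocked.

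Signs turned only for changes that were not called. Egln3 in kidney tumors against control kidneys went from -0.11 to 0.04 without fusion mouse 1 and 0.30 without control mouse 1 (range -0.30 to 0.30 without each animal). Hif1a in retro-orbital against kidney tumors went from -0.10 to 0.010 with upper quartile factors, 0.0068 without mouse 2 and 0.014 without mouse 3 (range -0.16 to 0.014). Hif1a in brain against kidney tumors went from 0.17 to -0.067 without the kidney tumors of mice 4 and 5, -0.18 without mouse 1 and -0.0015 without mouse 4 (range -0.18 to 0.58). Car9 in retro-orbital against kidney tumors went from -1.56 to 0.35 without the kidney tumors of mice 4 and 5. Over all 80 fold changes of the 10 genes and 1357 alternative values, 1244 kept sign and side of the threshold, 45 lost and 26 gained a call, and 42 turned sign. The causes were not tested.

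Counts over all genes moved as follows. Kidney tumors against control kidneys (4474 genes called) gave 7070 with DESeq2, 9405 with every library as its own sample, 7845 without the kidney tumors of mice 4 and 5, and 2084, 1163 and 1207 without control mouse 1, 2 and 3. Against non-transformed kidneys (3755) it was 6004 with DESeq2, 847 with the mouse as a block, 7115 without the tumors of mice 4 and 5, and 1423 and 1252 without mouse 1 and 3. Retro-orbital against kidney tumors (3919) gave 5975 with DESeq2 and 1635 to 1805 without mouse 2, 3 or 6. Brain against kidney tumors (2044) gave 5104 with DESeq2, 4052 with every library, 5933 in the joint fit, 0 with the block, 1306 without the tumors of mice 4 and 5, and as few as 300 without a mouse, that being mouse 2. Brain against retro-orbital tumors (364) gave 3080 with DESeq2, 3096 in the joint fit, 600 with at least 1 CPM and 0 to 1316 without a mouse, with 0 without mouse 2. The fetal comparison (605) gave 2726 with DESeq2, 5 with sex as a covariate and 0 to 1247 without a fetus. The difference between lines (2185) gave 3712 with DESeq2, 4253 without the tumors of mice 4 and 5 and as few as 956 without control mouse 2. Non-transformed against control kidneys (2) gave 493 with DESeq2, 227 with every library, 6 without the count filter, 5 in the joint fit and 0 to 10 without an animal.

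Groups of 3 to 6 animals limit every test, and Car9 and Ankrd37 are counted at a few CPM.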
